A study of Mus musculus with 7 samples.

Results

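The nuclear genes of respiratory complexes II to V were examined in oocytes without *Mfn1*, the gene of mitofusin 1, an outer membrane GTPase that joins neighbouring mitochondria. Members were chosen by symbol: Sdh genes for complex II, Uqcr and Uqcc genes and *Cyc1* for complex III, Cox genes followed by a digit for complex IV and Atp5 genes for complex V, leaving out symbols with a -ps suffix, which mark pseudogenes. Of the 22877 genes in the deposited table, 62 were members, with 8 in complex II, 12 in complex III, 26 in complex IV and 16 in complex V. Among them 45 encode structural subunits, tissue isoforms included, and 17 encode assembly factors or other associated proteins. The rule used symbols and no measured value, although earlier results of these data were known when the members were chosen.

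RNA was taken from oocytes of secondary follicles of 8-week-old mice of the strain label C57BL/6J. The *Mfn1*-/- group (KO) was *Mfn1* fl/fl with *Zp3*-Cre, a Cre recombinase under a promoter of the growing oocyte, so that the deletion was made in oocytes and the surrounding granulosa cells kept the gene. The WT group consisted of littermates, and whether these carried floxed alleles is not given in the sources used here. Follicles were freed with collagenase and oocytes were separated from granulosa cells with Accutase. Each library pooled 5 oocytes, and poly(A) RNA was amplified by Smart-Seq2, a full-length cDNA protocol, before paired-end sequencing with 75-base reads. The labels give 4 WT and 3 *Mfn1*-/- libraries, whereas the study's methods count 3 per genotype.

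The deposited table holds 1 mean of normalized counts per genotype and gene, made by the authors, and a sum over the 7 libraries. Values of single libraries were not analysed here, so no spread between replicates, no error and no test stands behind any ratio given, and depth per library is unknown. Each log2 ratio is that of the *Mfn1*-/- mean over the WT mean with 0.1 added to both as a pseudocount, so that the ratios of low genes are understated. The means of all genes summed to 142576 in *Mfn1*-/- and 130160 in WT oocytes, and over the 6226 genes whose mean across libraries was 1 or more, the median log2 ratio was 0.16. This shift of 0.16 is the level against which members were read. Where means, sums or shares are given in pairs, the *Mfn1*-/- value stands before the WT value, and every mean is the authors'. *Mfn1* itself had a mean of 0.0577 normalized counts in *Mfn1*-/- against 0.616 in WT oocytes, a log2 ratio of -2.18. The 14 oocyte markers looked for summed to 4136 and 3714, whereas the 12 granulosa cell markers with a value, of 14, summed to 2.40 and 1.78, of which *Inha* made up 1.87 and 0.954 and the other 11 were at 0.193 or below. Of 6 theca and stroma markers, 5 had a value and summed to 0.206 in *Mfn1*-/- and 0.204 in WT oocytes, and of 5 blood markers only *Hba-a2* had one, at 0.0285 and 0.0793. In bulk RNA such as this, fewer cells of a type and less RNA per cell cannot be told apart, and the part of other cells in the ratios was not tested.

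Complexes II, III and IV pass electrons from succinate and ubiquinol through cytochrome c to oxygen, and complexes III and IV pump protons across the inner mitochondrial membrane while doing so. Complex V, the ATP synthase, lets protons flow back through a ring of c subunits and uses the turning of that ring to make ATP. Apart from complex II, which is wholly nuclear encoded, each of these complexes combines a small part encoded by mitochondrial DNA with many subunits from the nucleus. Growing oocytes, which take up pyruvate from the granulosa cells, depend on this machinery for their ATP.

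Most members had a somewhat higher mean in *Mfn1*-/- than in WT oocytes, by about the shift of genes with a mean of at least 1 or slightly more. The mean was higher in *Mfn1*-/- for 51 of the 62 members and lower for 11, and it was higher in 56.7% of all genes. Among the 51 members with a mean of at least 1, 45 were higher, against 65.4% of genes at that level, and 39 lay above the shift, against 50% by construction. Of all 62 members 43 lay above it, against 36.7% of all genes. The median log2 ratio of the 62 members was 0.24, with quartiles of 0.12 and 0.35, compared with 0.04 for all genes and 0.16 for genes with a mean of at least 1. Summed over members, the means came to 1597 normalized counts in *Mfn1*-/- against 1363 in WT oocytes, or 1.12% and 1.05% of each column.

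How far the members stood above other genes depended on which genes they were set against. After the median of genes in the same of 20 bins of transcript length was subtracted, the median log2 ratio of the members was 0.042 and 36 of 62 were above 0. With bins of GC content instead, it was 0.037, with 36 of 62 above 0. Members with a log2 ratio past 1.5-fold numbered 8 on the higher side, which is 12.9% of 62, against 12.4% of all genes. On the lower side 1 member passed 1.5-fold, or 1.61%, against 6.88% of all genes. With the limit at 2-fold, 4 members passed on the higher side and 0 on the lower, against 4.87% and 2.75% of all genes. Among genes with a mean of at least 1, 15.5% were past 1.5-fold higher and 7.71% lower, and 5.44% and 3.24% were past 2-fold. The counts of members on the higher side are near these backgrounds.

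**Figure D1:**
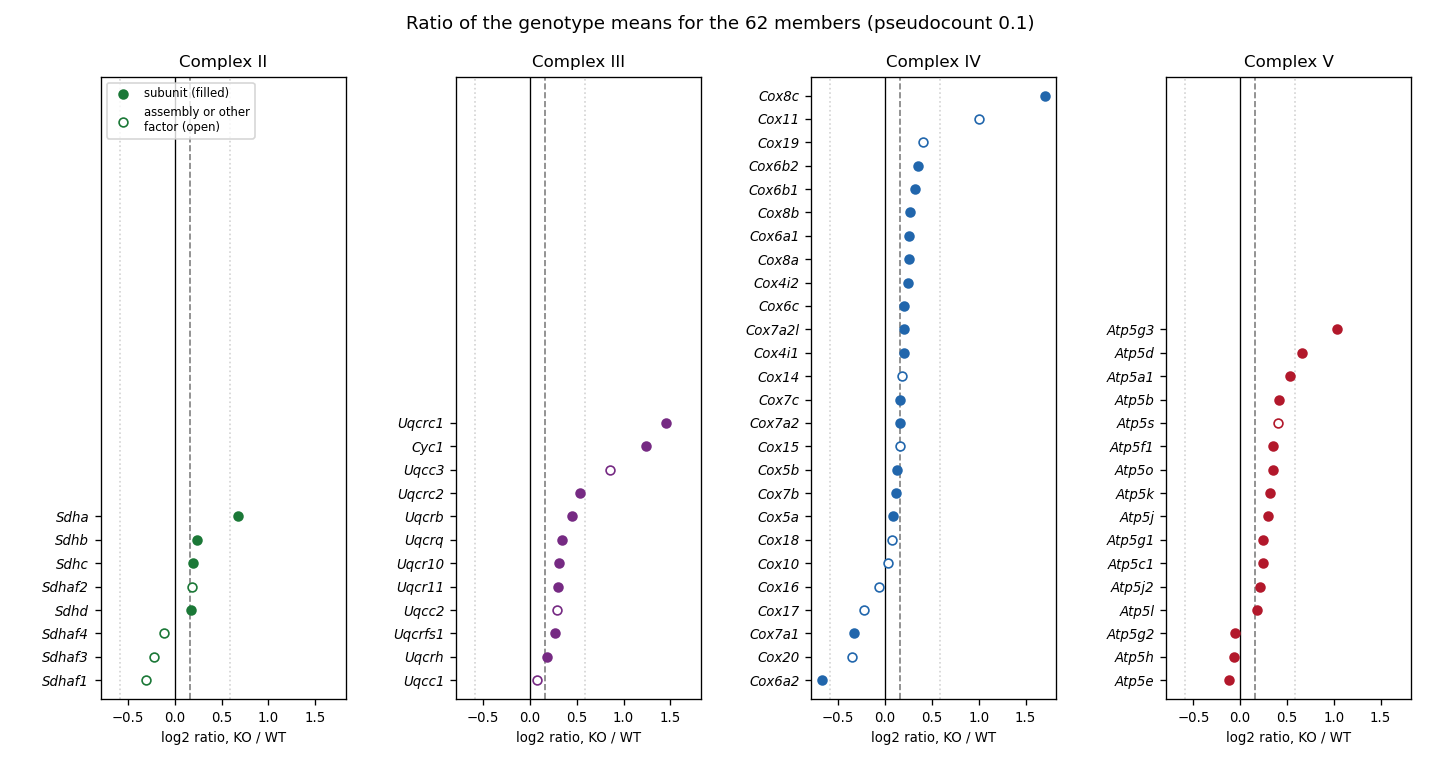
Log2 ratio of the Mfn1-/- (KO) to the WT mean (x axis) for each of the 62 members (y axis), 1 panel per complex, with filled points for subunits and open points for assembly and other factors; the solid line is 0, the dashed line the shift of 0.16 and the dotted lines 1.5-fold. All 12 members of complex III lie above 0, and Cox8c at 1.71 and Cox6a2 at -0.67 are the extremes.

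In complex II, succinate dehydrogenase, the subunits had higher means in *Mfn1*-/- oocytes and 3 of the 4 assembly factors lower ones. In all 4 subunits the *Mfn1*-/- mean was the higher, and their median log2 ratio was 0.22, although *Sdhd* stood at -0.01 with length bins and *Sdhb* at -0.02 with GC bins. *Sdha*, the flavoprotein that oxidizes succinate, stood at 3.55 normalized counts in *Mfn1*-/- against 2.19 in WT oocytes, a log2 ratio of 0.67, and was the only member of complex II past 1.5-fold. *Sdhb*, the iron-sulfur subunit, had means of 7.02 and 5.93 (log2 ratio 0.24). The membrane anchors *Sdhc* and *Sdhd*, which bind ubiquinone, had means of 3.4 and 2.95, and of 42 and 37.3. Per kb of transcript *Sdhd* was the most abundant member of the complex in both genotypes, at 34.1 normalized counts per kb in *Mfn1*-/- and 30.3 in WT oocytes, and it had the highest mean of the complex as deposited as well. Per kb means the authors' mean divided by transcript length; whether the deposited values were already scaled by length is not given in the sources used here. The deposited means fell with transcript length across genes (Spearman rho -0.32 over 6047 genes with a mean of at least 1, and -0.41 over the 51 members at that level), so a value per kb may divide by length more than once.

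Of the 4 complex II assembly factors, 3 had a lower mean in *Mfn1*-/- oocytes. Of the 7 scalings compared, only the length and GC bins could change the sign of a lower mean. The 3 factors stayed below 0 with both. *Sdhaf1*, which helps to build the iron-sulfur subunit, stood at 11 normalized counts in *Mfn1*-/- against 13.6 in WT oocytes (log2 ratio -0.30). *Sdhaf4*, which acts on the flavoprotein, stood at 13.5 and 14.6 (-0.11), and *Sdhaf3*, a partner of *Sdhaf1*, was low at 0.21 and 0.261 (-0.22). *Sdhaf2*, which attaches the flavin to *Sdha*, was the exception at 2.68 and 2.35 (0.18). The 4 factors together summed to 27.4 and 30.8, and the 4 subunits to 56.0 and 48.4. None of the 4 factors passed 1.5-fold, and 69.6% of the exonic bases of *Sdhaf1* also lie in *E130208F15Rik* on the opposite strand.

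Complex III, the cytochrome bc1 complex, held 2 of the 4 members past 2-fold, *Uqcrc1* and *Cyc1*, the others being *Cox8c* and *Atp5g3*. For all 12 members the *Mfn1*-/- mean was the higher, and 11 lay above the shift, the exception being *Uqcc1*; with length bins 10 and with GC bins 9 of the 12 were above 0. The median log2 ratio was 0.33 over the complex, 0.89 over its 4 core subunits and 0.32 over its 5 accessory subunits. The core subunits stayed above 0 in all 7 scalings, with medians from 0.69 to 0.89.

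*Uqcrc1* encodes core protein 1, which carries no redox group and holds the complex together on the matrix side. Its mean was 9.2 normalized counts in *Mfn1*-/- against 3.3 in WT oocytes, 2.79 times as high, with a log2 ratio of 1.45 that exceeded those of 97.9% of genes with a mean of at least 1. The gene lies on chr9:108936633-108949623 (GRCm38, plus strand). *Cyc1* encodes cytochrome c1, the heme subunit that hands electrons to cytochrome c, and had means of 18.5 and 7.8, a log2 ratio of 1.24. Both genes lay above 1.5-fold in all 7 scalings compared.

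The other core subunits were nearer to the shift. *Uqcrc2*, core protein 2, stood at 13.7 and 9.39 normalized counts (log2 ratio 0.54), and the Rieske iron-sulfur protein *Uqcrfs1* at 12.2 and 10.1 (0.27). The proteins of *Uqcrc1* and *Uqcrc2* occur in equal numbers in the complex, whereas the *Uqcrc1* transcript lay below that of *Uqcrc2* in both genotypes, as deposited and also per kb, where they stood at 5.57 and 7.23 normalized counts per kb in *Mfn1*-/- oocytes, and at 1.996 and 4.95 in WT oocytes. *Uqcrc1* had the lowest mean of the 9 subunits in both genotypes on either scale.

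Among the accessory subunits of complex III, log2 ratios ranged from 0.18 to 0.45. The highest mean as deposited was that of *Uqcrq*, at 115 normalized counts in *Mfn1*-/- against 90.6 in WT oocytes, and the highest per kb that of *Uqcr10*, with means of 55.9 and 44.9. *Uqcrh*, the hinge protein, stood at 35.5 and 31.3, *Uqcr11* at 33 and 26.8, and *Uqcrb* at 13.8 and 10.1. Of the factors that assist the synthesis and insertion of cytochrome b, *Uqcc3* was past 1.5-fold at 2.98 and 1.6 (log2 ratio 0.86), *Uqcc2* stood at 12.4 and 10.1 (0.29) and *Uqcc1* at 0.584 and 0.551 (0.07).

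Complex IV, cytochrome c oxidase, stayed close to the shift apart from a few tissue isoforms and assembly factors. The mean was higher in *Mfn1*-/- oocytes for 21 of 26 members and above the shift for 14, with a median log2 ratio of 0.17; the median turned to -0.04 with length bins and with GC bins, where 11 of 26 were above 0. The 11 ubiquitous subunits lay within a narrow range of 0.09 to 0.32. The lowest of them was *Cox5a* at 25.8 and 24.3 normalized counts, and the highest *Cox6b1* at 12.9 and 10.3. In between, *Cox5b* stood at 49.3 and 45.2, *Cox6c* at 22 and 19.1, *Cox7b* at 22.2 and 20.4 and *Cox7c* at 71.8 and 64.1, all small subunits around the mitochondrially encoded core. Their means summed to 506 in *Mfn1*-/- and 443 in WT oocytes.

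Several complex IV subunits exist as a ubiquitous form and forms of heart and muscle, lung or testis, and the transcripts of both kinds were compared within each subunit. For subunit 6b, the form known from testis was the main one: *Cox6b2* had means of 96.2 normalized counts in *Mfn1*-/- against 75.2 in WT oocytes, and *Cox6b1* 12.9 and 10.3. *Cox6b2* accounted for 88.2% of the subunit 6b sum in *Mfn1*-/- and 88.0% in WT oocytes, and per kb of transcript for 88.7% and 88.5%.

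*Cox6a2*, the heart and muscle form of subunit 6a, had the lowest ratio of all members. Its mean was 7.94 normalized counts in *Mfn1*-/- against 12.7 in WT oocytes, a log2 ratio of -0.67. The log2 ratio was -0.86 with length bins and -0.90 with GC bins. Its ubiquitous partner *Cox6a1* stood at 61 and 50.9 (0.26). The share of *Cox6a2* in the subunit 6a sum was accordingly 11.5% in *Mfn1*-/- and 19.97% in WT oocytes, and 9.85% and 17.3% per kb. Of the exonic bases of *Cox6a2*, 10.3% also lie in *Itgad* on the opposite strand.

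Subunit 8 gave the highest ratio of all members at the pseudocount of 0.1. *Cox8c*, a form known from testis, had means of 2.44 normalized counts in *Mfn1*-/- against 0.678 in WT oocytes, a log2 ratio of 1.71. With a pseudocount of 1 the log2 ratio was 1.04, below those of *Uqcrc1* at 1.25 and *Cyc1* at 1.15. *Cox8c* made up 2.81% and 0.949% of the subunit 8 sum (3.36% and 1.14% per kb), since the ubiquitous *Cox8a* stood at 84.2 and 70.7. The muscle form *Cox8b* was near the floor of the table at 0.0553 and 0.0287.

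The remaining pairs were dominated by the ubiquitous form in both genotypes. *Cox4i2*, the lung form of subunit 4, had means of 0.474 and 0.383 against 71.4 and 62.2 for *Cox4i1*. *Cox7a1*, the muscle form of subunit 7a, had means of 0.167 and 0.236 against 59.3 and 53.2 for *Cox7a2*. The related *Cox7a2l*, described as a linker of complexes III and IV and counted here among the 11 ubiquitous subunits, stood at 26 and 22.6 (log2 ratio 0.20). Whether its protein acts so in these mice was not tested.

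**Figure D2:**
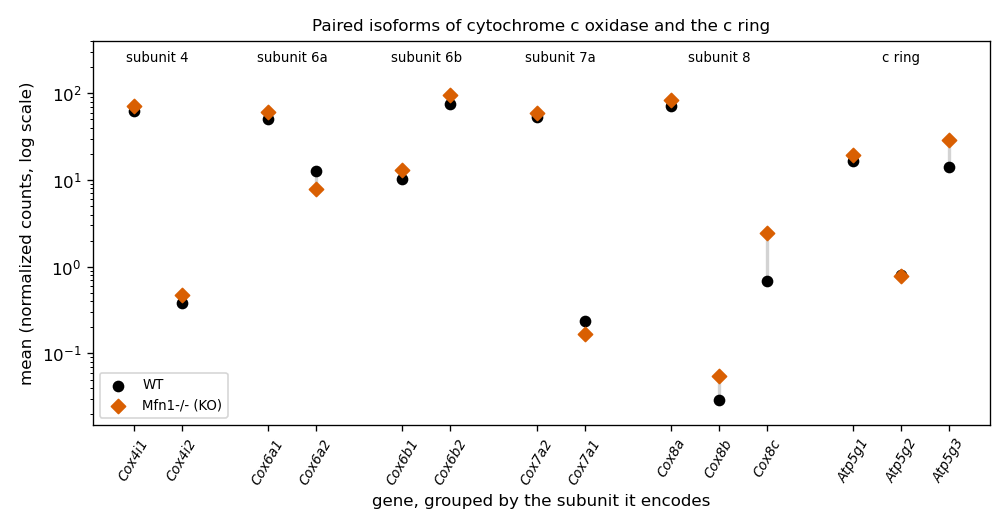
Authors' means (y axis, normalized counts, log scale) of the isoforms of 5 complex IV subunits and of the c ring of complex V (x axis), with circles for WT and diamonds for Mfn1-/- (KO) oocytes. Cox6b2 lies above Cox6b1 in both genotypes, Cox6a2 is lower in Mfn1-/-, and Cox8c and Atp5g3 are higher in Mfn1-/-.

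The 9 assembly factors of complex IV showed no common direction. Their median log2 ratio was 0.07, 6 were higher in *Mfn1*-/- oocytes, and 3 of the 9 lay above the shift. *Cox11*, which delivers copper to the oxidase, was past 1.5-fold at 1.56 and 0.731 normalized counts (log2 ratio 1.00), but 48.4% of its exonic bases also lie in *Tom1l1* on the opposite strand, and with a pseudocount of 1 its log2 ratio was 0.56. The copper chaperone *Cox17* had the opposite sign at 26.3 and 30.8 (-0.23), and the copper-related *Cox19* stood at 1.96 and 1.45 (0.41). The heme synthases *Cox10* and *Cox15* had means of 1.5 and 1.47 (0.03), and of 0.155 and 0.129 (0.16). *Cox14*, which acts early on the mitochondrially encoded COX1, stood at 96.7 and 85 (0.19). *Cox18*, which inserts COX2 into the membrane, stood at 4.06 and 3.85, its partner *Cox20* at 0.36 and 0.486, and *Cox16* at 0.785 and 0.825.

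Complex V had a median log2 ratio of 0.30, with 13 of 16 members higher in *Mfn1*-/- oocytes and 11 of 16 above 0 with length bins and 12 with GC bins. In the F1 head, which carries the catalytic sites, *Atp5a1* (alpha) stood at 27.9 and 19.3 normalized counts and *Atp5b* (beta) at 60.4 and 45.2, with log2 ratios of 0.53 and 0.42. Of the central stalk that turns inside the head, *Atp5d* (delta) was past 1.5-fold at 11.1 and 6.99 (0.66), *Atp5c1* (gamma) stood at 4.55 and 3.83 (0.24), and *Atp5e* (epsilon) was lower in *Mfn1*-/- oocytes at 97.7 and 106 (-0.12). As deposited, *Atp5e* had the highest mean of complex V in both genotypes, and it was also the highest of the complex per kb, at 232 normalized counts per kb in *Mfn1*-/- and 252 in WT oocytes.

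The peripheral stalk, which holds the head still, gave log2 ratios of 0.35 for *Atp5o* (1.15 and 0.88 normalized counts) and *Atp5f1* (6.99 and 5.45), 0.29 for *Atp5j* (14.1 and 11.5) and -0.06 for *Atp5h* (39.8 and 41.6). In the membrane part, *Atp5k* stood at 83.5 and 67.2, *Atp5j2* at 38.4 and 33.1 and *Atp5l* at 8.54 and 7.55, with log2 ratios from 0.18 to 0.31. *Atp5s*, a coupling factor outside the core enzyme, had means of 0.521 and 0.368 (0.41).

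The c ring is encoded by 3 genes whose mature proteins are the same behind different import signals. *Atp5g3* was past 1.5-fold, at 29.3 normalized counts in *Mfn1*-/- against 14.3 in WT oocytes (log2 ratio 1.03), and lay above 1.5-fold in all 7 scalings. *Atp5g1* stood at 19.5 and 16.4 (0.25) and *Atp5g2* at 0.774 and 0.811 (-0.06). As deposited, *Atp5g1* gave 39.3% of the c ring sum in *Mfn1*-/- and 52.0% in WT oocytes, and *Atp5g3* 59.1% and 45.4%. Per kb of the annotated transcript, which has 4715 bases for *Atp5g1* and 714 for *Atp5g3*, *Atp5g3* gave 88.8% in *Mfn1*-/- and 81.4% in WT oocytes. The coding sequences are nearly the same length, at 408 and 423 bases, so the order of both genes in WT oocytes depended on the scale. The sum over the ring was 49.6 and 31.5. These shares leave out near-identical pseudogene copies of *Atp5g1* and *Atp5g2*, described further on. With the copies in the table added to their genes, the ring sum was 618 and 497, and the shares were 64.7% and 63.3% for *Atp5g1*, 30.6% and 33.8% for *Atp5g2* and 4.74% and 2.88% for *Atp5g3*.

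**Figure D3:**
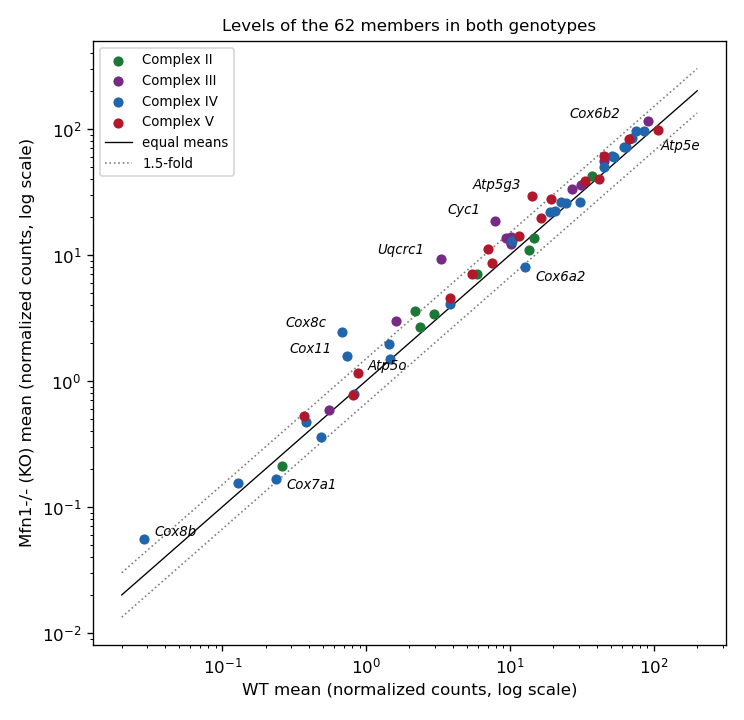
Mfn1-/- (KO) mean against WT mean for the 62 members (both axes normalized counts, log scale), coloured by complex, with the line of equal means and dotted lines at 1.5-fold without a pseudocount. Most members lie close to the line of equal means over the whole range, from Cox8b at 0.0287 to Atp5e at 106 in WT oocytes. Of the labelled genes, Uqcrc1, Cyc1, Atp5g3, Cox8c and Cox11 lie above the upper dotted line, as does Cox8b, whose log2 ratio with the pseudocount was 0.27, and Cox6a2 lies below the lower one.

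A value for some of these genes depends on where their reads were placed, because pseudogenes elsewhere in the genome carry nearly the same letters; most of them are processed pseudogenes, which are DNA copies of an mRNA. With a match of at least 75 bases at 95% identity or more, 19 of the 62 members matched 1 or more pseudogenes of GENCODE M21, called copies here, in 56 pairs of gene and pseudogene, and in 32 of these pairs the pseudogene was in the deposited table. The pseudogene was processed in 53 pairs and unprocessed in 3, all 3 of them among the 14 pairs of *Sdhaf2*, whose matches were short, at 77 to 132 bases, and partly to pseudogenes of other genes. In WT oocytes the copies in the table summed to more than the gene itself for 8 members. The stretches below, each 75 bases of coding sequence and so 1 read long, set a gene beside its copy. They come from GENCODE M21 on GRCm38, and capitals mark the bases that differ. They were chosen after the values were seen.

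Atp5g1: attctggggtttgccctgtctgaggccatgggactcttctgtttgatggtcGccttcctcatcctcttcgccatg
Gm10039: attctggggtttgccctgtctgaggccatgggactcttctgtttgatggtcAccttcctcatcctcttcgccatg
Atp5o: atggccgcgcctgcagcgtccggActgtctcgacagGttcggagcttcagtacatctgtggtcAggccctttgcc
Gm5436: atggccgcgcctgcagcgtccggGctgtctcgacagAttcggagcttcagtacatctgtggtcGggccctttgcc
Atp5l and Gm10221: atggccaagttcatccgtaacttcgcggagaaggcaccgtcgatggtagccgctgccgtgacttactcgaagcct

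In the *Atp5g1* stretch, which covers coding bases 334 to 408 and ends at the last codon of the ring subunit before the stop, 1 base differs from *Gm10039*, a processed pseudogene on chr11:100361716-100362126. This is the only difference in the 408 bases of coding sequence. *Gm10039* had means of 380 normalized counts in *Mfn1*-/- against 298 in WT oocytes, while *Atp5g1* stood at 19.5 and 16.4. In the *Atp5o* stretch, the first 75 coding bases, 3 differ from *Gm5436* on chr12:84258331-84258973, which stood at 62.5 and 48.9 against 1.15 and 0.88. Over the 639 aligned coding bases of *Atp5o*, 19 differ. The *Atp5l* stretch, also the first 75 coding bases, is the same in *Gm10221* on chr5:24581554-24581862, as is the rest of the coding sequence, and *Gm10221* stood at 106 and 71 against 8.54 and 7.55.

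Every 75-base window of the coding sequence was then looked up in the copies. At least 1 window was found unchanged in a copy for 13 of the 62 members. All windows were shared for *Atp5g2*, *Atp5l* and *Cox7c*, 92.8% for *Atp5g1*, 54.3% for *Atp5h*, 50.6% for *Uqcrb*, 46.1% for *Cox6c* and 43.0% for *Cox7a2l*. The share was 33.9% for *Atp5f1*, 13.8% for *Atp5o*, 12.8% for *Uqcr11*, 4.0% for *Atp5j* and 1.44% for *Cox20*. Most windows of *Atp5o* thus differ from its copy. A single read from a shared window cannot be assigned to the gene by its own letters. Reads were paired, and the other read of a pair may lie in bases that differ. Pairs and the untranslated parts of the transcripts were not looked at, so these shares are of single windows of coding sequence. How reads with several matches were counted is not given in the sources used here.

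Adding the copies to their gene changed the sign for 2 members. For *Atp5h*, whose main copy *Gm10250* had means of 291 normalized counts in *Mfn1*-/- against 272 in WT oocytes, the log2 ratio went from -0.06 to 0.09. For *Atp5g2*, whose copy *Gm10175* stood at 188 and 167, it went from -0.06 to 0.17. The log2 ratio of *Atp5l* went from 0.18 to 0.54, that of *Cox7a2l* from 0.20 to 0.45, and that of *Uqcrb* from 0.45 to 0.59, which is past 1.5-fold. None of the 9 members past 1.5-fold by itself had a copy. The 5 pseudogenes that carry the symbol of a member with a -ps suffix were no members; *Uqcrh-ps1* was the highest of them at 12.8 and 9.72.

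**Figure D4:**
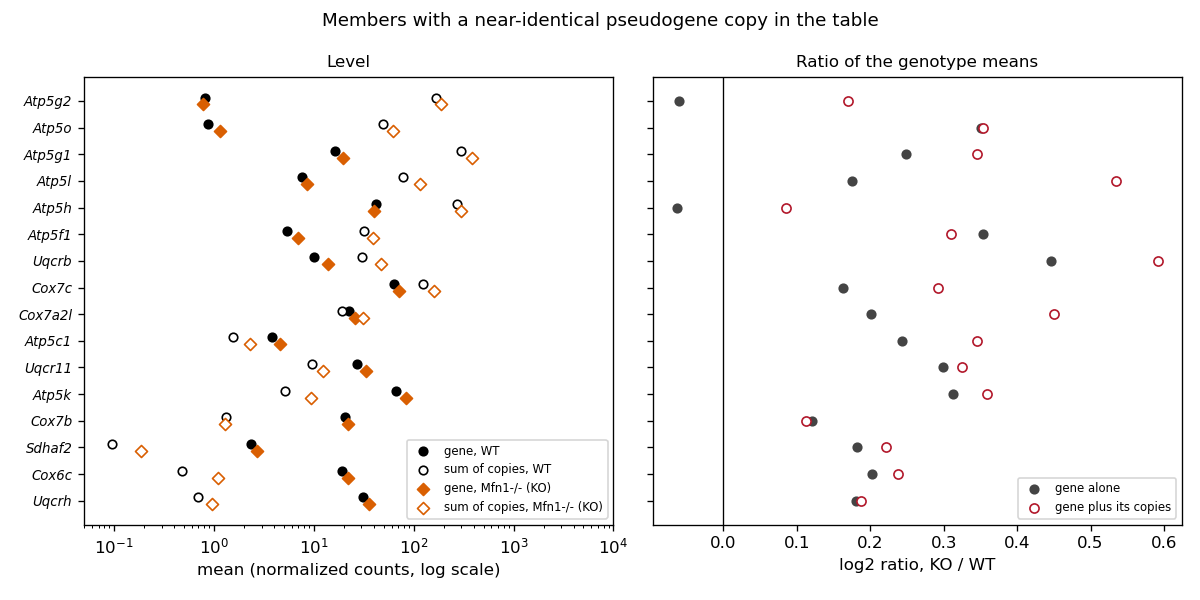
Members with a near-identical pseudogene copy in the table (y axis, ordered by the ratio of copies to gene in WT). Left, means of the gene (filled) and sums over its copies (open) in normalized counts on a log scale, circles for WT and diamonds for Mfn1-/- (KO); right, log2 ratio of the genotype means for the gene alone and with its copies added. The copies of Atp5g2, Atp5o, Atp5g1, Atp5l, Atp5h and Atp5f1 lie well above the gene.

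Exons of 19 members also overlap a gene on the opposite strand. The largest such shares were 91.1% of the exonic bases for *Cox20* (with *Hnrnpu*), 69.6% for *Sdhaf1* and 48.4% for *Cox11*, and on the same strand *Cox16* shares 56.8% with *Gm20498*. The symbol *Atp5o* belongs to 2 overlapping genes of GENCODE M21, so its value cannot be placed on either. Libraries were made with a Nextera XT kit from cDNA that was already amplified, which keeps no strand information. Reads from the overlapping bases therefore cannot be assigned to either gene by strand. Of the 40 members free of overlaps, 6 were past 1.5-fold higher and 0 lower, as *Cox6a2*, *Cox11* and *Atp5d* dropped out. The backgrounds past 1.5-fold were 12.4% higher and 6.88% lower for all genes. For genes with a mean of at least 1 they were 15.5% and 7.71%, and the count on the higher side is near these.

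The promoters of respiratory genes are known for sites of NRF1 and of ETS factors such as GABP, so their letters were searched in the RefSeq promoter windows (GRCm38.p6) of 250 bases before to 50 bases after each start, on both strands. Windows were found for 49 of the 62 members, 53 in all, and not for *Atp5a1*, *Cox17*, *Cox18*, *Cox4i1*, *Cox4i2*, *Cox6a2*, *Cox6c*, *Cox8c*, *Cyc1*, *Sdhc*, *Uqcrb*, *Uqcrc2* and *Uqcrq*. The letters searched were GCGCA, any base and GCGC in a row for NRF1, CCGGAAG for ETS factors, AAGATGGCG for YY1 and TATAAA for a TATA box; the ETS and YY1 letters can overlap by AAG. Below are the 250 bases before the start of 4 members, chosen after the matches were known, to show a promoter with both kinds of match (*Cox6a1* and *Sdhd*), one with NRF1 letters alone (*Sdha*) and that of a muscle isoform with neither (*Cox8b*). Capitals mark NRF1 and ETS letters.

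Cox6a1: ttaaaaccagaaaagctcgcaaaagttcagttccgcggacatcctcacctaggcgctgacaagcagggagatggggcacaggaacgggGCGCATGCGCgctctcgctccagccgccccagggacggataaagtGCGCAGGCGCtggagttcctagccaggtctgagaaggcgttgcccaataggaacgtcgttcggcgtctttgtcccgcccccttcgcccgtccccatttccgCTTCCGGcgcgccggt
Sdhd: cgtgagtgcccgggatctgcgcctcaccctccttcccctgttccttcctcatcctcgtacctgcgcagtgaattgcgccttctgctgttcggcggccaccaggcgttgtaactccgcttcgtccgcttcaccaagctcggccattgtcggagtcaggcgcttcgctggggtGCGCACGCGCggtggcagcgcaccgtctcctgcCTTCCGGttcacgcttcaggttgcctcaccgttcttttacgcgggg
Sdha: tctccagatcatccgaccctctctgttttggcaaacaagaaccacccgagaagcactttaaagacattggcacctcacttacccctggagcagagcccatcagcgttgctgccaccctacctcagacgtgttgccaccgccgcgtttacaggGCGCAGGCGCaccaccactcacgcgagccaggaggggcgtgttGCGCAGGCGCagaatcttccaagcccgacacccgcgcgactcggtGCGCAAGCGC
Cox8b: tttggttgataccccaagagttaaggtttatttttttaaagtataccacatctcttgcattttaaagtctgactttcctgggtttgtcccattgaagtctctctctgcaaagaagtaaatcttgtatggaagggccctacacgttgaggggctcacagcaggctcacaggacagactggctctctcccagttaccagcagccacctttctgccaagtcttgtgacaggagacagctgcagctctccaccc

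These windows lie on the minus strand, at chr5:115348959-115349208 for *Cox6a1*, chr9:50603850-50604099 for *Sdhd*, chr13:74350241-74350490 for *Sdha* and chr7:140900447-140900696 for *Cox8b*. *Cox6a1* holds 2 NRF1 matches and 1 ETS match, which begins 16 bases before the start, *Sdhd* holds 1 of each, and *Sdha* holds 3 NRF1 matches, the last of which ends at the start. Over all windows of members, 24.5% held the NRF1 letters, compared with 4.60% of all 32851 windows and 12.4% of the windows of genes with a mean of at least 1. The ETS letters were in 39.6%, compared with 8.86% and 23.2%, and the YY1 letters in 5.66%, compared with 1.40% and 3.74%. The TATA letters were in 7.55%, compared with 13.6% and 7.72%. The median ratio of observed to expected CpG was 0.813 in windows of members, 0.384 in all windows and 0.782 in those of genes with a mean of at least 1, and 0.115 in that of *Cox8b*.

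The median log2 ratio was 0.26 for the 13 members with NRF1 letters and 0.21 for the 36 without, and 0.18 for the 20 with ETS letters and 0.27 for the 29 without. The highest log2 ratio was 0.32 among the members with ETS letters and 1.45 among those without. None of the 20 with ETS letters was past 1.5-fold, against 12.4% of all genes past it higher and 6.88% lower. *Cyc1*, *Cox8c* and *Cox6a2*, which were past 1.5-fold, had no window. Whether ETS letters go with smaller ratios was not tested. *Uqcrc1*, *Atp5g3* and *Sdha* held NRF1 letters, whereas *Cox11*, *Uqcc3* and *Atp5d* held neither. A match describes letters only.

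Of the regulators of these genes, *Nrf1* had means of 0.794 normalized counts in *Mfn1*-/- against 0.767 in WT oocytes. The mean was higher in *Mfn1*-/- for 7 of the 9 regulators looked at, and *Gabpa*, the DNA-binding part of GABP, was the one past 1.5-fold. These counts are 77.8% higher and 11.1% past 1.5-fold higher, against 56.7% and 12.4% of all genes. Above the shift lay 4 of the 9, or 44.4%, against 36.7% of all genes. Only *Gabpb1* had a mean across libraries of at least 1, at 1.3 and 1.1. Directions of the others rest on low values, such as 0.0196 and 0.0147 for *Esrra* and 0.0111 and 0.0114 for *Ppargc1a*. *Gabpa* was low, at 0.344 and 0.195 (log2 ratio 0.59). It shares 397 exonic bases with the member *Atp5j* on the opposite strand, which stood at 14.1 and 11.5. The part of *Atp5j* reads in the value of *Gabpa* was not tested. Other genes of the pathway, which do not carry the symbols of the rule, were counted in the same way. Of 28 such genes 27 had a value, 22 were higher in *Mfn1*-/- oocytes, 5 were past 1.5-fold higher and 0 lower, and the median log2 ratio was 0.22. As shares these are 81.5% higher and 18.5% past 1.5-fold higher, against 56.7% and 12.4% of all genes, with 6.88% of all genes past 1.5-fold lower. A mean of at least 1 was reached by 20 of the 27. Among all genes at that level, 65.4% were higher, 15.5% past 1.5-fold higher and 7.71% past it lower. Above the shift lay 18 of the 27. Those past 1.5-fold were *Bcs1l*, which inserts the Rieske protein into complex III, at 3.03 and 1.56 (0.91), *Sco2*, a copper carrier for COX2, at 8.87 and 5.3 (0.73), *Lyrm7*, the chaperone of the Rieske protein, at 0.225 and 0.105 (0.66), *Coa3*, a partner of *Cox14*, at 51.1 and 33.5 (0.61), and *Atpaf2*, which assembles the F1 head, at 1.32 and 0.837 (0.60). *Cycs*, cytochrome c itself, which carries electrons from *Cyc1* to complex IV, was lower in *Mfn1*-/- oocytes at 21 and 28 (-0.41). Pseudogene copies were searched for members only, so read placement for *Cycs* and the other genes listed here was not examined.

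Across the 51 members with a mean of at least 1, log2 ratio and WT mean had a Spearman rho of -0.33, compared with -0.13 over 6047 genes at that level. The WT mean is a part of the ratio, so the sign of such a value is in part given. The rho with transcript length was 0.04 for the members and -0.17 for the genes, and with GC content 0.18 and 0.29. These correlations run across genes, which share libraries and are no replicates, and are given as descriptions.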

How the data were processed

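RNA-seq of 4 WT and 3 *Mfn1*-/- libraries of 5 oocytes each was available as 1 table. According to the methods and the submitters' processing notes, reads were trimmed with Cutadapt, filtered, aligned with STAR to GRCm38/mm10 and counted on genes; the normalization, annotation version and counting settings are not given in the sources used here. The signal values in the deposited table are the authors' means of normalized counts per genotype and their sum over libraries, which equals 3 KO means plus 4 WT means within 1% for 100% of genes. Its columns of ratio, signed fold change, p-value and FDR hold the authors' own comparison and were not used. The table had 0 unused columns of per-sample values.

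Members were taken by symbol. The log2 ratio of the means was computed with a pseudocount of 0.1, and 1.5-fold was used as a descriptive limit; with 1 value per genotype no test was run. The lists of other pathway genes, regulators and markers, and the genes named (members past 1.5-fold, core and catalytic subunits, tissue isoforms, extremes of each complex and genes of the study's qRT-PCR), like the members themselves, were chosen with earlier results of these data known. The copy search, the printed sequences and the overlaps were chosen after the values were seen. The 7 scalings compared were pseudocounts of 0.1, 0.01 and 1, subtraction of the shift, means scaled to the same sum, and subtraction of the median of 20 bins of transcript length or of GC content. A change of pseudocount cannot change the sign of a ratio, and subtracting the shift or scaling to the same sum can only lower it. Length and GC content were those of the principal transcript in GENCODE M21, a choice that replaced the longest transcript after values were seen. Copies were found with blastn 2.17.0. Python 3.11.15, numpy 2.4.6, pandas 2.3.3 and matplotlib 3.10.9 were used, and the code was tested on simulated data.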

Additional observations from a re-analysis of the deposited data

How the results depend on the processing

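The median log2 ratio of the 62 members was 0.24 and stayed above 0 under every alternative run. A pseudocount of 0.01 gave 0.25 and one of 1 gave 0.19, and it was 0.25 for the members with a mean of at least 1. It was 0.082 after subtraction of the shift, 0.11 with means scaled to the same sum, 0.042 with bins of transcript length and 0.037 with bins of GC content. Under alternatives added after seeing the data it was 0.060 and 0.045 with bins of length and GC content from the longest transcript, 0.25 without members that have a pseudogene copy and 0.25 without members whose exons overlap another gene. The count of members over 1.5-fold higher, 8, ranged from 6 to 9 over these alternatives and was 4 with a fold of 2. The count over 1.5-fold lower, 1, was 3 with length bins, 2 with GC bins, 2 with bins of either kind from the longest transcript, 0 with a fold of 2 and 0 without overlapping members, and otherwise 1. The cause of these differences was not tested. The sign was kept in all 7 scalings by 37 of 62 members, 27 above 0 and 10 below 0. For members below 0, only the length and GC bins could have changed the sign. *Atp5g3*, *Cox8c*, *Cyc1*, *Uqcc3* and *Uqcrc1* were over 1.5-fold higher in each of the 7 scalings.

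No paired analysis was possible because the table holds genotype means and no values of single libraries. For the same reason leaving out each replicate was not run, and a ratio that rests on 1 library could not be seen. The pseudocount limits the ratios of the 11 members with a mean under 1.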
